A study of Mus musculus with 4 samples.

Results

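The genes described here are those of the matrix metalloproteinases (MMPs), the ADAM and ADAMTS proteases, the ADAMTS-like proteins and the tissue inhibitors of metalloproteinases (TIMPs). They were taken by name: every non-control probe whose gene name is Mmp, Adam, Adamts, Adamtsl or Timp followed by a number, together with Adamdec1. The rule found 77 of the 27597 gene names on the array, read by 132 of its 41174 probes. The expression of these genes was compared between mouse embryonic fibroblasts on their way to reprogramming and untransduced ones, each at ambient and at low oxygen. Four-factor cells had received the transcription factors Oct3/4, Sox2, Klf4 and c-Myc, which reprogramme cells towards pluripotency. They were kept at 21% or 5% O2 for 72 hours, with a label of day 4. Untransduced fibroblasts were kept at the same oxygen levels for 10 days. All were labelled embryonic fibroblasts, and no strain, age or vector is given in the sources used here. Each of the 4 conditions had 1 one-colour Agilent array of total RNA, so a difference between 2 arrays has no replicate check and no p-value.

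Both arrays of a culture lay on the same slide, and the cultures lay on different slides. Culture, time in culture and slide therefore cannot be told apart, while the oxygen comparisons were made within a slide. Having 1 array a condition limits how precise any value can be. Between 57.1% and 68.4% of probes were well above background on an array, and no spot was saturated. Replicate spots of a probe differed with a standard deviation (SD) of 0.065 to 0.108 log2 units, which says nothing of the spread between cultures. Each of 10 fibroblast markers was well above background on all 4 arrays, with a summed signal of 549 and 502 times the 75th percentile of signal in four-factor cells (21% then 5% O2) and 1057 and 1095 in untransduced fibroblasts. Macrophage markers were also present: 13 of 14 were well above background on both untransduced arrays and 8 of 14 on both four-factor arrays, where Adgre1, C1qa, C1qc, Mrc1, Ptprc and Tyrobp were not. The counts on an array were 3 or 4 of 5 for endothelial markers, 3 to 6 of 6 for epithelial ones and 7 of 8 for those of cartilage and bone.

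MMPs and ADAMTSs are secreted or membrane-bound zinc proteases that cut collagens, proteoglycans and other matrix proteins, and most leave the cell as inactive precursors. ADAMs sit in the membrane, and several of them cut growth factors and receptors off the cell surface. TIMPs bind the active site and block it, and fibroblasts are a main source of many of these proteins in connective tissue. ADAMTS-like proteins resemble ADAMTSs but carry no protease domain.

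Among these genes, 8 MMPs lie side by side on chromosome 9, with probes between chr9:7282762-7697370 (mm8, the build of the array files). Their promoters are shown because the collagenase and stromelysin genes among them are textbook targets of the transcription factor AP-1, and because neighbouring members differed in whether they were measured. The sequences are the 120 bases before the annotated start of 4 of them, from RefSeq (GRCm38.p6, plus strand), with matches to the AP-1 motif (TGANTCA, both strands) and to the TATA box (TATAAA, both strands) in capitals.
Mmp13 (chr9:7272394-7272513): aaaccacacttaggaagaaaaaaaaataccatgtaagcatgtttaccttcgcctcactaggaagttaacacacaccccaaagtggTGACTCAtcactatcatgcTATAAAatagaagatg
Mmp3 (chr9:7445702-7445821): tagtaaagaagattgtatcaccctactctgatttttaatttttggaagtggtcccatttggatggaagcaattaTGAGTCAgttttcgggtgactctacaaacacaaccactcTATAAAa
Mmp1a (chr9:7464021-7464140): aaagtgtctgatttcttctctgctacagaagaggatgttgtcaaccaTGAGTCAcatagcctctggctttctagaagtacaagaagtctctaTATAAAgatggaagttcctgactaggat
Mmp10 (chr9:7502222-7502341): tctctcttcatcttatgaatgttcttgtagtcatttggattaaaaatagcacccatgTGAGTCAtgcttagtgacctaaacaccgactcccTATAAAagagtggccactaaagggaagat

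An AP-1 motif began 35 bases before the start of Mmp13, 46 before that of Mmp3, 73 before that of Mmp1a and 63 before that of Mmp10. Of the 8 clustered genes, 7 held the motif between 35 and 95 bases before a start site (Mmp13, Mmp12, Mmp3, Mmp1a, Mmp10, Mmp20 and Mmp7), and Mmp8 did not. Of the other 37 members with a promoter in that table, 4 held it in the window of 250 bases before to 50 after the start (Adam19, Adam1b, Adam25 and Adam29). The same window held the motif in 7.81% of all 32851 promoters. Whether the motif went with detection cannot be judged, since Mmp8 alone lacked it, and Mmp8 was not well above background on any array. Of the 7 clustered genes that held it, Mmp12, Mmp1a, Mmp20 and Mmp7 were not well above background on any array either. Mmp10 was well above background on both four-factor arrays, and Mmp3 and Mmp13 were on all 4. A match describes letters and not a bound site. The hypoxia response motif (ACGTG, both strands) was in 9 of 50 member promoters, or 18%, against 19.6% of all.

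**Figure D1:**
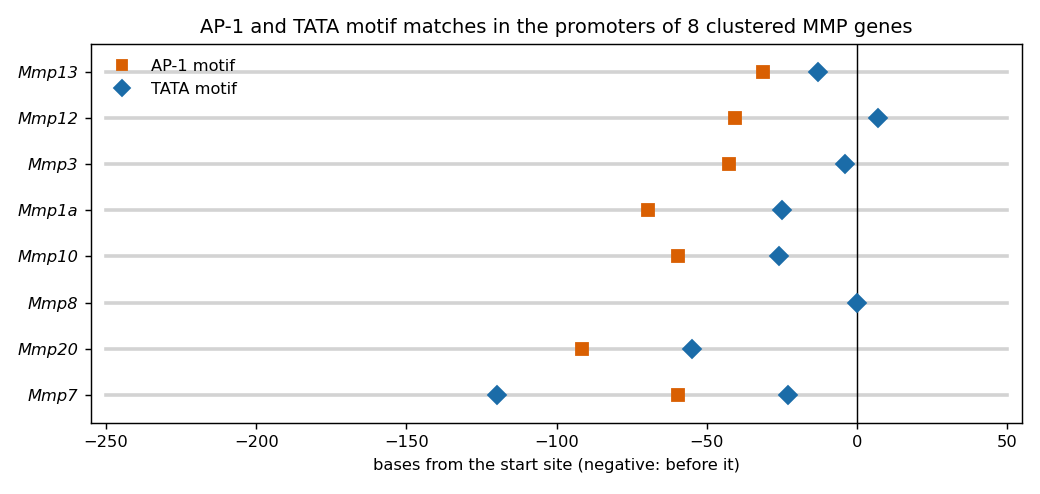
Positions of AP-1 motif matches (squares) and TATA motif matches (diamonds) in the promoters of the 8 clustered MMP genes, in bases from the start site, in their order along chromosome 9. Where a gene has several start sites the matches of each are drawn in 1 row. An AP-1 match lies between 35 and 95 bases before the start in every gene but Mmp8.

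Of the 77 members, 48 were well above background on all 4 arrays (62.3%, against 54.1% of all gene names), 10 on some and 19 on none. Levels below are log2 values of signal over the 75th percentile of the same array, given at 21% then 5% O2, first for four-factor cells (with the factors) and then for untransduced fibroblasts (without). Pairs of folds between the cultures are also at 21% then 5% O2. A level of one probe is not set against that of another probe. All 7 proteoglycan-cleaving ADAMTSs and all 3 procollagen N-propeptidases were measured on every array, as were 9 of 10 somatic ADAM proteases. ADAMs of testis and epididymis, which act in sperm and fertilisation, made up 9 of the 19 members that were not well above background anywhere (Adam2, Adam6, Adam7, Adam18, Adam24, Adam25, Adam29, Adam30 and Adam32). The others were Mmp1a, Mmp7, Mmp8, Mmp12, Mmp20, Mmp24, Mmp25, Adam22, Adamts13 and Adamts18. Among 6 germ cell markers, 2 to 4 were well above background on an array. Neutrophil markers, of which Mmp8 and Mmp25 are companions in neutrophil granules, were well above background for 3 of 8 on the four-factor arrays and 0 of 8 on the untransduced ones. The dimmest signal counted as well above background was -6.85 and -6.90 in four-factor cells and -4.93 and -5.13 in untransduced fibroblasts. A gene not well above background in untransduced fibroblasts can thus read higher there than in four-factor cells.

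**Figure D2:**
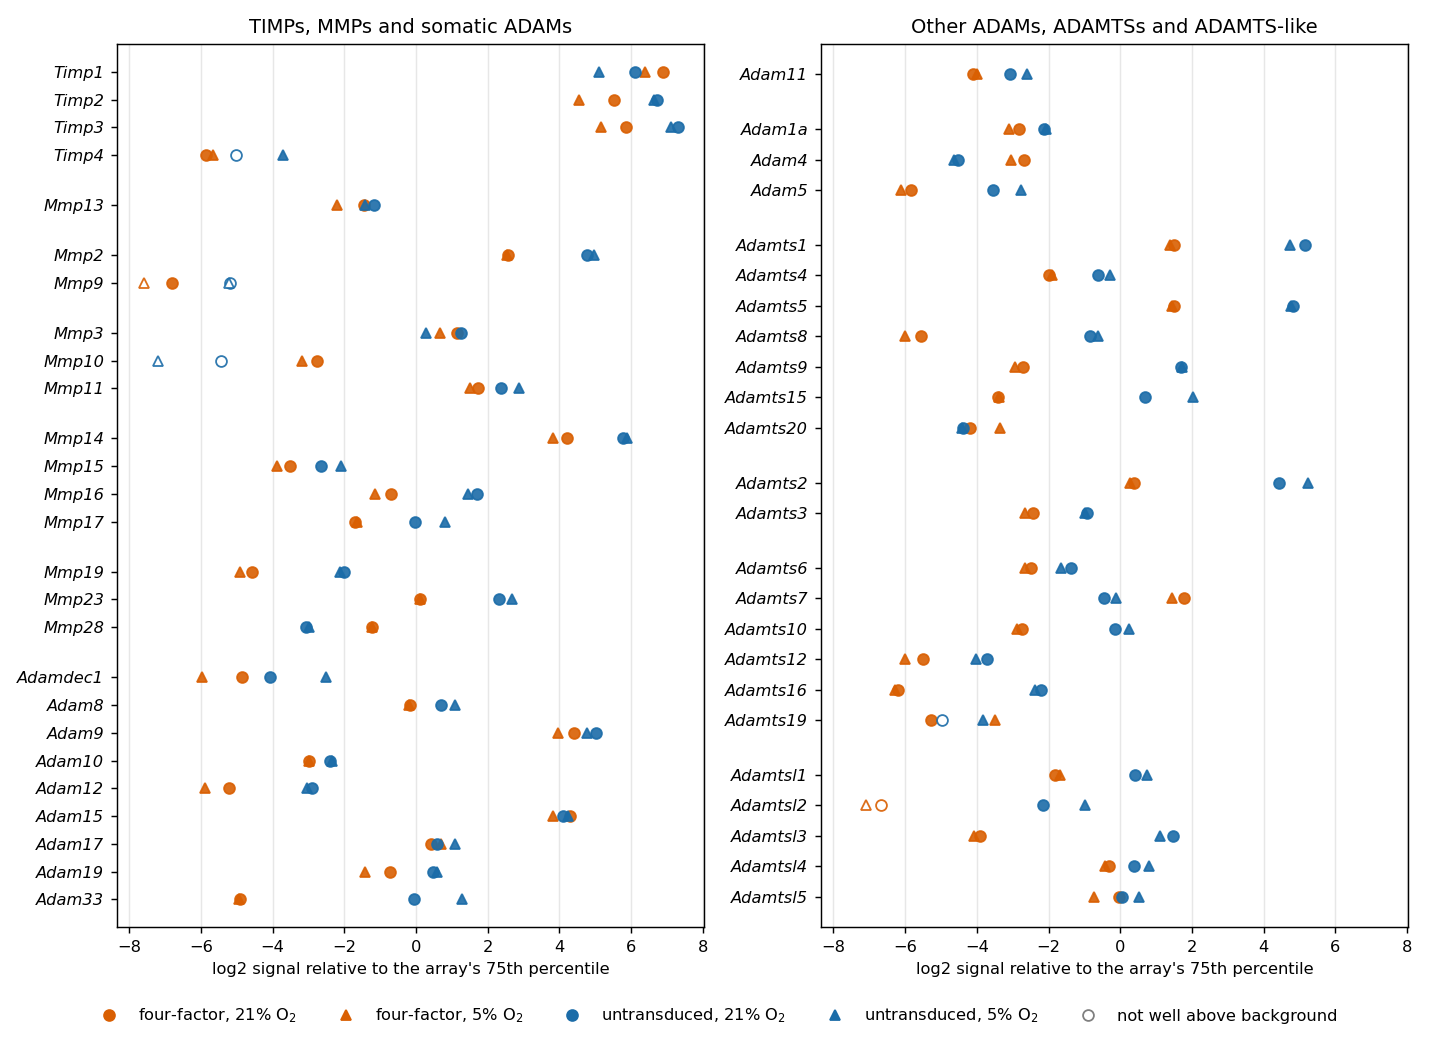
Levels of 50 members on the 4 arrays, as log2 of signal over the 75th percentile of each array, grouped by role from top to bottom. Orange marks four-factor cells, blue marks untransduced fibroblasts, circles 21% O2, triangles 5% O2, and open symbols a signal not well above background. Blue symbols lie to the right of orange ones for most proteoglycan-cleaving ADAMTSs and membrane-type MMPs, and to the left for Timp1, Mmp28, Adam4 and Adamts7.

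Most matrix proteases and inhibitors were lower in four-factor cells than in untransduced fibroblasts. At 21% O2, among the 48 members measured on the pair of arrays, 27 were at least 2-fold lower and 3 at least 2-fold higher (Adamts7, Adam4 and Mmp28). The background was 16.6% lower and 11.8% higher by 2-fold among all 15217 genes measured on both arrays. At 5% O2, 35 of 50 members were at least 2-fold lower and 5 higher, against 20% lower and 17.1% higher of 15448 genes. The median difference of the members was -1.21 log2 units at 21% O2 and -1.87 at 5% O2, with -0.02 over all genes at both. Below 0 were 42 of 48 members at 21% and 43 of 50 at 5% O2; scaling to the spike-in controls instead left 36 and 39 below 0, and moved the median of all genes from -0.02 to 0.39 and 0.58.

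An additive limma fit of culture and oxygen to the 4 arrays, with 1 residual degree of freedom, called 36 of 56 members lower in four-factor cells and 5 higher (Benjamini-Hochberg adjusted over 18278 genes). Over all genes the model called 22.7% lower and 27.3% higher, and 14.6% lower and 48.5% higher under spike-in scaling, which called 30 members lower and 8 higher. The smallest adjusted p of a member was 0.0030, for Adamts16, Adamts9 and Adamtsl3. Culture, time and slide lie together, so these p-values do not separate transduction from time or slide. The model takes the 2 oxygen levels as replicates of a culture. Its residual is the difference of the oxygen effects of both cultures, so the p-values measure no spread between repeated cultures. Fibroblast markers moved with this comparison: 7 of 10 were at least 2-fold lower in four-factor cells at each oxygen level, against 16.6% and 20% of all genes. The marker medians were -1.73 and -1.76, and 1 of 10, Vim, went the other way by 0.50 and 0.56. The part of these markers in the result was not tested, and in bulk RNA fewer cells of a type and less RNA per cell cannot be told apart.

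Proteoglycan-cleaving ADAMTSs cut aggrecan, versican and related proteoglycans. Of these 7, 6 were at least 2-fold lower in four-factor cells at both oxygen levels, with a median difference of -3.67 at 21% and -3.34 at 5% O2. Over all measured members 27 of 48 and 35 of 50 were at least 2-fold lower, and over all genes 16.6% and 20%. Adamts1, a versican-cleaving enzyme, had levels of 1.49 and 1.39 with the factors and 5.15 and 4.73 without, or 12.7-fold and 10.1-fold lower. Adamts5, an aggrecanase, had levels of 1.49 and 1.44 with the factors and 4.81 and 4.77 without, or 9.96-fold and 10.1-fold lower. These genes are neighbours on chromosome 16, with probes 67.6 kb apart (Adamts1 at chr16:85683995-85684054 and Adamts5 at chr16:85751628-85751687, mm8).

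A second pair of neighbours showed the same pattern. Adamts15 stood at levels of -3.40 and -3.38 with the factors and 0.68 and 2.02 without, 17.0-fold and 42.3-fold lower. Adamts8 stood at -5.55 and -6.0 with the factors and -0.85 and -0.61 without, 26.0-fold and 41.8-fold lower. Normexp background correction gave 10.8-fold and 24.7-fold lower for Adamts15 and 7.38-fold and 7.90-fold lower for Adamts8. Both cleave aggrecan in vitro, and their probes lie 63.1 kb apart on chromosome 9 (Adamts15 at chr9:30649013-30649072 and Adamts8 at chr9:30712200-30712259, mm8). For both pairs the levels of the 2 cultures did not overlap, but how many of all genes share this was not counted.

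Adamts9, a versican-cleaving enzyme of vessels and growing tissue, had levels of -2.70 and -2.95 with the factors and 1.69 and 1.71 without. It was 21.0-fold lower at 21% O2 and 25.2-fold lower at 5% O2 (limma culture term -4.52 ± 0.17 SE, adjusted p = 0.0030). Adamts4, the other main aggrecanase, was 2.61-fold and 3.03-fold lower, with levels of -2.0 and -1.89 against -0.62 and -0.29. Under spike-in scaling its differences were -0.98 and -0.997. Adamts20, the closest relative of Adamts9, was the exception: its levels were -4.19 and -3.36 with the factors and -4.40 and -4.41 without. It was 2.07-fold higher at 5% O2 by its brightest probe, but -0.79 by the mean of its 3 probes, of which the other 2 were not well above background on any array, and 0.32 with normexp.

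Adamts2 removes the amino-terminal propeptide of fibrillar procollagens. Its level was 0.39 and 0.26 with the factors and 4.43 and 5.23 without, 16.5-fold and 31.3-fold lower. Adamts3, a relative of the same subfamily, was 2.89-fold and 3.21-fold lower, but differed by -0.81 at 5% O2 with the mean of its probes. Adamts14 was 1.43-fold and 1.10-fold lower, so the subfamily did not move by a common amount. Of the fibrillar collagens on the substrate list, Col1a1 differed by -0.54 and -0.44, Col1a2 by -0.53 and -0.57, Col2a1 by -0.55 and -0.82 and Col3a1 by -1.63 and -1.64.

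Among the other ADAMTSs, Adamts16 had levels of -6.20 and -6.27 with the factors and -2.22 and -2.37 without, 15.8-fold and 15.0-fold lower. With normexp it was 4.57-fold and 3.56-fold lower, and its other probe was not well above background on any array. Adamts10, which binds fibrillin, was 6.07-fold and 8.73-fold lower. Adamts12 was 3.39-fold and 3.96-fold lower, but differed by -0.76 at 5% O2 with normexp. Adamts6, the closest relative of Adamts10, was 2.15-fold and 2.04-fold lower, and its differences were -0.91 and -0.76 with normexp and -0.70 and -0.43 with spike-in scaling. Adamts7, which cuts the cartilage protein COMP and is the closest relative of Adamts12, ran the other way. It had levels of 1.78 and 1.44 with the factors and -0.45 and -0.11 without, 4.69-fold and 2.94-fold higher (limma culture term 1.89 ± 0.24 SE, adjusted p = 0.0097).

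All 4 ADAMTS-like proteins measured on both arrays were lower in four-factor cells, 2 of them by at least 2-fold at 21% and all 4 at 5% O2. The shares were 27 of 48 and 35 of 50 over all measured members, and 16.6% and 20% over all genes. By its brightest probe Adamtsl3 had levels of -3.92 and -4.09 with the factors and 1.46 and 1.10 without, 41.6-fold and 36.4-fold lower. With normexp it was 22.8-fold and 17.9-fold lower. Its other probe, well above background on all 4 arrays, differed less: -3.38 and -3.29 with the factors against -2.82 and -2.25 without. Adamtsl2, which binds latent TGF-beta binding protein and fibrillin, was not well above background with the factors and had levels of -2.14 and -0.97 without. It was at least 23.2-fold lower at 21% O2 and at least 60.7-fold lower at 5%, as bounds against the higher of its own dim signal and the dimmest signal counted as well above background. Such a bound of at least 2-fold lower was reached by 11% of 3585 genes at 21% and 13.5% of 3494 genes at 5% O2. Adamtsl1 was 4.66-fold and 5.41-fold lower. Adamtsl4 was 1.61-fold and 2.35-fold lower. Adamtsl5 was 1.07-fold and 2.35-fold lower by its brightest probe, and its probes disagreed in direction. Under spike-in scaling both differed by -0.63 at 5% O2.

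Membrane-type MMPs hold their protease domain at the cell surface. All 4 measured ones were lower in four-factor cells, 3 by at least 2-fold at 21% and 4 at 5% O2. Over all measured members 27 of 48 and 35 of 50 were at least 2-fold lower, and over all genes 16.6% and 20%. Mmp14, which cuts collagen and activates pro-Mmp2, had levels of 4.22 and 3.83 with the factors and 5.77 and 5.90 without, 2.93-fold and 4.19-fold lower. Its substrate Mmp2, gelatinase A, had levels of 2.55 and 2.54 with the factors and 4.78 and 4.97 without, 4.68-fold and 5.39-fold lower. Timp2, which bridges Mmp14 and pro-Mmp2 on the cell surface, had levels of 5.54 and 4.54 with the factors and 6.73 and 6.64 without, 2.30-fold and 4.29-fold lower. All 3 parts of this activation complex were thus lower at both oxygen levels. Under spike-in scaling the difference of Timp2 at 21% O2 was -0.79.

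Mmp16, which also activates pro-Mmp2, had levels of -0.69 and -1.16 with the factors and 1.70 and 1.46 without, 5.23-fold and 6.13-fold lower. Mmp17, anchored by a lipid, was 3.18-fold and 5.49-fold lower. Mmp15 was 1.83-fold and 3.46-fold lower. Mmp23 and Mmp19 were 4.60-fold and 5.91-fold lower at 21% and 5.96-fold and 6.91-fold lower at 5% O2, respectively, with 3.34-fold and 3.07-fold for Mmp19 under normexp. Mmp28, epilysin, stood apart with levels of -1.23 and -1.22 with the factors and -3.06 and -2.98 without, 3.55-fold and 3.38-fold higher (limma culture term 1.79 ± 0.16 SE, adjusted p = 0.0059).

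No measured gene of the chromosome 9 cluster was 2-fold lower in four-factor cells, and Mmp10 was higher there. Mmp3, stromelysin-1, had levels of 1.13 and 0.68 with the factors and 1.27 and 0.27 without, and these ranges overlapped. Mmp13, collagenase-3, had levels of -1.46 and -2.22 with the factors and -1.16 and -1.42 without. The higher four-factor level lay just below the lower untransduced one, and the differences of -0.30 and -0.80 were under 2-fold; with spike-in scaling the first was 0.10. Mmp10, stromelysin-2, had levels of -2.77 and -3.17 in four-factor cells and was not well above background in untransduced fibroblasts. It was at least 4.47-fold higher in four-factor cells at 21% and at least 3.88-fold higher at 5% O2, where 10.2% and 11.8% of genes measured on 1 array reached 2-fold higher by such a bound. Mmp11, which lies elsewhere and is activated inside the cell by furin, had levels of 1.73 and 1.5 with the factors and 2.37 and 2.86 without, 1.56-fold and 2.58-fold lower, but differed by -0.77 at 5% O2 with spike-in scaling. Mmp9, gelatinase B, was well above background by its brightest probe on the four-factor array at 21% O2 alone, at a level of -6.81. The same probe read -5.20 and -5.22 in untransduced fibroblasts, higher but not well above background there. Its other probe was well above background on the untransduced array at 5% O2 alone.

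TIMPs went different ways. Timp1, which inhibits most secreted MMPs, had levels of 6.88 and 6.38 with the factors and 6.10 and 5.11 without. It was 1.72-fold higher in four-factor cells at 21% and 2.41-fold higher at 5% O2 (limma culture term 1.03 ± 0.20 SE, adjusted p = 0.023). Timp3, which binds the matrix and inhibits Adam17 and the aggrecanases, had levels of 5.86 and 5.16 with the factors and 7.30 and 7.11 without, 2.70-fold and 3.86-fold lower. Timp4 was dim, with levels of -5.87 and -5.67 with the factors and -3.71 without them at 5% O2, where it was 3.87-fold lower. With normexp that difference was -0.69. At 21% O2 it was not well above background in untransduced fibroblasts. The difference was thus positive for Timp1 and negative for Timp2 and Timp3.

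Somatic ADAMs split into members with a small and members with a large difference. Adam10 and Adam17, the main sheddases of Notch receptors and of TNF and EGF-receptor ligands, were lower in four-factor cells, by 1.52-fold and 1.13-fold at 21% O2. They were 1.57-fold and 1.33-fold lower at 5%, and Adam17 changed sign under spike-in scaling. Adam9 was 1.53-fold and 1.76-fold lower. Adam15 was 1.14-fold higher at 21% and 1.32-fold lower at 5% O2. By contrast Adam33, a mesenchymal protease, had levels of -4.91 and -4.93 with the factors and -0.05 and 1.28 without, 29.1-fold and 74.3-fold lower (limma culture term -5.54 ± 0.38 SE, adjusted p = 0.0043). With normexp it was 11.6-fold and 24.4-fold lower. Adam12, meltrin alpha, had levels of -5.22 and -5.89 with the factors and -2.90 and -3.04 without, 4.98-fold and 7.20-fold lower, or 2.48-fold and 2.33-fold with normexp. Adam19, meltrin beta, was 2.33-fold and 4.0-fold lower, but differed by -0.82 at 21% O2 with spike-in scaling.

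Adam8 and Adamdec1 are known from leukocytes and macrophages. Adam8 was 1.82-fold and 2.44-fold lower in four-factor cells, with levels of -0.16 and -0.21 against 0.71 and 1.08. Adamdec1 was 1.70-fold lower at 21% and 11.1-fold lower at 5% O2. Summed over the 14 macrophage markers, signal in units of the 75th percentile was 1.16 and 1.01 in four-factor cells and 16.7 and 36.8 in the untransduced ones, which moved with both genes. Lyz2 made up most of the untransduced sums; over the other 13 markers the sums were 0.945 and 0.814 against 2.28 and 6.06. Some markers went the other way. At 21% O2, 3 of 7 measured on both arrays were higher in four-factor cells (Cd68 by 0.85, Laptm5 by 1.74 and Fcgr3 by 0.18). At 5% O2, 1 of 7 was higher, Laptm5 by 0.34. By bound Itgam was at least 1.36-fold higher at 21% and at least 1.08-fold higher at 5% O2. Adgre1, C1qa, C1qc, Mrc1, Ptprc and Tyrobp were lower by bound at both oxygen levels. The part of macrophage RNA in both genes was not tested. With spike-in scaling Adam8 differed by -0.68 at 5% O2, and with normexp Adamdec1 was 3.21-fold lower there.

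ADAMs named for other tissues were also read. Adam4, a testis ADAM, had levels of -2.68 and -3.05 with the factors and -4.54 and -4.63 without, 3.63-fold and 3.0-fold higher. With normexp background correction its differences were 0.67 and 0.61, both under 2-fold. Adam5, another testis ADAM, was 4.89-fold and 10.1-fold lower by its brightest probe, or 2.17-fold and 2.64-fold with normexp. Its other probe was not well above background on any array. Adam1a was 1.62-fold and 2.04-fold lower, and at 5% O2 its difference was -0.71 with normexp, -0.91 with quantile normalization and -0.43 with spike-in scaling. Adam11, an ADAM of neural adhesion with no protease activity, was 2.02-fold and 2.59-fold lower, while its relative Adam23 was 1.16-fold and 1.17-fold lower. Adam11 stayed under 2-fold at 21% O2 with normexp, quantile or spike-in scaling and with the mean of its probes, and at 5% O2 with normexp and spike-in scaling.

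**Figure D3:**
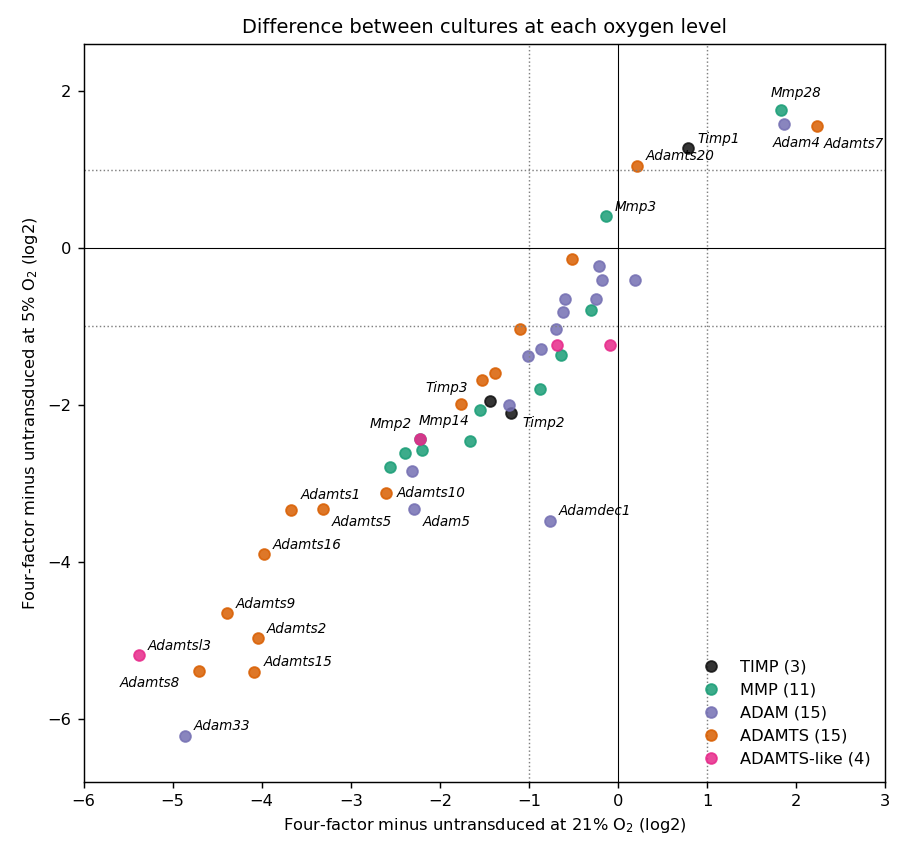
Difference between four-factor cells and untransduced fibroblasts at 21% O2 (horizontal) and 5% O2 (vertical), in log2 units, for the 48 members well above background on all 4 arrays, coloured by family with the number of genes. Dotted lines mark 2-fold. Most points lie in the lower left, Adam33, Adamtsl3 and several ADAMTSs farthest, with Adamts7, Adam4, Mmp28 and Timp1 in the upper right.

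Low oxygen went with small differences in four-factor cells. Of 55 members measured on both arrays, 1 was at least 2-fold higher at 5% O2 (Adamts19) and 1 at least 2-fold lower (Adamdec1), against 1.25% and 1.08% of 17929 genes. By a lower bound 0 of 2 members measured on 1 array passed 2-fold either way, against 8.48% of 1014 genes higher and 6.9% lower. Levels were lower at 5% O2 for 42 of the 55 (76.4%, against 51.9% of all genes), with a median difference of -0.17 against -0.01. This count turned on the scaling: 29 were lower with spike-in scaling, where the median of all genes was 0.13, and 30 with normexp. All genes at least 2-fold apart divided as 53.8% higher in the main setting, 74.5% with spike-in scaling and 71.9% with normexp.

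In untransduced fibroblasts 4 of 49 members were at least 2-fold higher at 5% O2 (Adamdec1, Adamts15, Adam33 and Adamtsl2) and 0 lower, against 2.56% and 1.72% of 15196 genes. A further 2 were at least 2-fold higher by a lower bound (Timp4 at least 2.33-fold and Adamts19 at least 2.16-fold), as were 13.4% of 1145 genes measured on 1 array. The median difference was 0.08, against -0.04 over all genes, and 29 of 49 members were higher. Under spike-in scaling, Mmp3 and Timp1 passed 2-fold lower at -1.05 each, so that 4 members were higher and 2 lower. Of the 48 members measured on all 4 arrays, 20 were lower at 5% O2 in four-factor cells and higher in untransduced fibroblasts, 18 were lower in both, 8 higher in both, and 2 the reverse. The same division over all genes was not counted, and the signs in four-factor cells turned on the scaling, as given above.

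No member was called for oxygen by the additive model: limma called 0 genes of 18278 at an adjusted p under 0.05, where the smallest adjusted p of a member was 0.592 (Adamts19). At an unadjusted p under 0.05, 1 member was higher (Adamts19) and 2 were lower (Timp1 and Mmp3), which is 5.36% of 56 members against 7.66% of all genes. In simulated data the model recovered 0% of changes of 1 log2 unit and 46% of changes of 2 units. With spike-in scaling Adamts19 was called, among 160 genes higher and 111 lower.

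Timp1 and Mmp3 were lower at 5% O2 in both cultures. The difference of Timp1 was -0.51 with the factors and -0.99 without (log2 units; limma oxygen term -0.75 ± 0.20 SE, adjusted p = 0.592). That of Mmp3 was -0.45 and -0.99 (oxygen term -0.72 ± 0.21 SE, adjusted p = 0.606 by limma). That of Mmp13 was -0.75 and -0.26. For Mmp10 the difference was -0.40 in four-factor cells, and there is none in untransduced fibroblasts, where it was not well above background.

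Timp2 and Timp3 were lower at 5% O2 mainly in four-factor cells, at -1.0 and -0.71, with -0.10 and -0.19 without the factors. Whether these effects differ between the cultures was not tested. For Timp2 the difference in four-factor cells was 1.997-fold, just under the threshold. Timp1, Timp2 and Timp3 thus all had the lower four-factor level at 5% O2. Timp4 differed by 0.20 in four-factor cells.

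Adamts15 and Adam33 were higher at 5% O2 in untransduced fibroblasts and nearly equal in four-factor cells. Adamts15 differed by 1.34 in untransduced fibroblasts and 0.03 in four-factor cells. Adam33 differed by 1.33 and -0.02. Adamtsl2 differed by 1.17 in untransduced fibroblasts, and by 0.94 with normexp. Just under the threshold there were Mmp17 at 0.84, Adamts2 at 0.80 and Adam5 at 0.77. Of 10 fibroblast markers, 7 were lower and 3 higher at 5% O2 in these cells, the highest by 0.82 (Pdgfra). Their part in these differences was not tested.

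Adamdec1 showed opposite differences: its level was -4.85 at 21% and -5.98 at 5% O2 with the factors, and -4.08 and -2.51 without. It was 2.18-fold lower at 5% O2 in the first and 2.99-fold higher in the second. With normexp background correction these differences were -0.20 and 0.94, and with spike-in scaling the first was -0.99. Macrophage markers moved with it in untransduced fibroblasts, where 13 of 13 measured markers were higher at 5% O2, 12 by at least 2-fold (median 1.41), Csf1r by 1.57. Over all genes 2.56% were at least 2-fold higher there and 55.2% were below 0. In four-factor cells 7 of 8 measured markers were lower, against 51.9% of all genes, and 0 by 2-fold (median -0.10). The part of macrophage RNA in Adamdec1 was not tested.

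Adamts19 was higher at 5% O2 in four-factor cells, from -5.29 to -3.50 (3.44-fold). In untransduced fibroblasts its level was -3.83 at 5% O2 and not well above background at 21% O2. Both cultures thus had the higher level at 5% O2 (limma oxygen term 1.46 ± 0.23 SE, adjusted p = 0.592). With normexp the four-factor difference was 0.95. Adamts20 was higher by 0.83 at 5% O2 in four-factor cells and differed by -0.01 in untransduced fibroblasts.

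**Figure D4:**
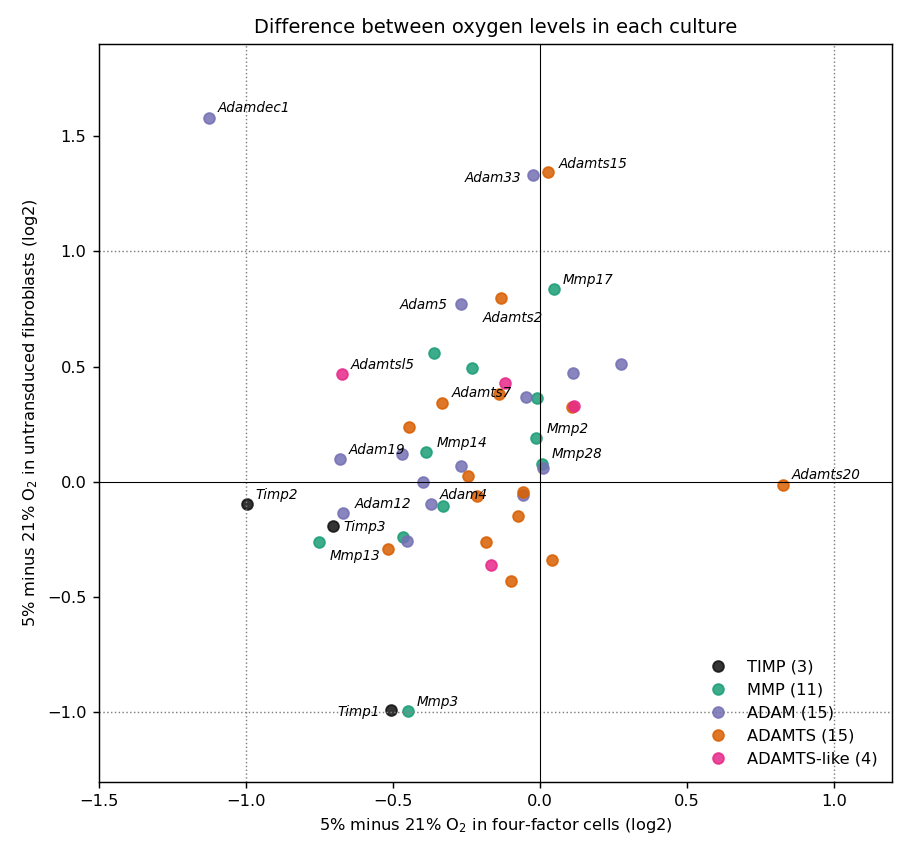
Difference between 5% and 21% O2 in four-factor cells (horizontal) and untransduced fibroblasts (vertical), in log2 units, for the 48 members well above background on all 4 arrays, coloured by family with the number of genes. Dotted lines mark 2-fold. Timp1 and Mmp3 lie lower left, Timp2 and Timp3 at the left near 0 on the vertical axis, Adam33 and Adamts15 at the top near 0 on the horizontal axis, and Adamdec1 in the upper left.

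Genes that activate or restrain these proteases were read beside them. Of 16 listed genes of activation and pericellular control, 6 of 15 measured were at least 2-fold lower in four-factor cells and 2 higher at 21% O2, and 7 and 2 of 16 at 5% O2. Over all genes the shares were 16.6% lower and 11.8% higher at 21% O2 and 20% lower and 17.1% higher at 5%, so the count of higher genes was near the background. Reck, a membrane-anchored MMP inhibitor, differed by -2.59 and -3.27 log2 units, lower in four-factor cells. Lrp1, the endocytic receptor that clears MMPs, ADAMTSs and TIMPs, differed by -1.96 and -2.5. The listed convertases, which cut precursors, went different ways. Pcsk5 differed by -2.21 and -2.62 and Pcsk6 by 1.28 and 0.53, while Furin differed by 0.26 and -0.13 and Pcsk7 by 0.13 and -0.03. Plaur, the urokinase receptor, was higher by 2.03 and 2.12. At 5% against 21% O2, 3 of 16 were at least 2-fold lower in untransduced fibroblasts, against 1.72% of all genes, among them Plau, urokinase, at -1.41 and Plaur at -1.08. In four-factor cells 14 of 15 were lower, against 51.9% of all genes, and 0 by 2-fold, with -0.60 for Plau and -0.99 for Plaur. Spike-in scaling moved the median of all genes in this comparison from -0.01 to 0.13. Its effect on the counts of this list and the lists below was not tested.

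The list of AP-1, ETS and RUNX factors held 10 genes. At 5% O2, 8 of 9 measured were lower in untransduced fibroblasts, 2 by at least 2-fold (Fosl1 at -2.31 and Junb at -1.01), against 55.2% of all genes below 0 and 1.72% at least 2-fold lower. Fosb was at least 4.52-fold lower by bound. In four-factor cells 9 of 10 were lower, against 51.9% of all genes, and 0 by 2-fold, with Fosl1 at -0.47. Between cultures the list was divided. At 21% O2, 5 of 10 were higher in four-factor cells and 5 lower (median -0.09), 1 each by at least 2-fold (Fosl1 at 2.44 and Fosb at -1.39). At 5% O2, 6 of 9 were higher and 3 lower, with 2 at least 2-fold higher (Fosl1 at 4.28 and Junb at 1.35) and 0 lower. Over all genes 11.8% were at least 2-fold higher and 16.6% lower at 21% O2, and 17.1% and 20% at 5%. These values stand beside those of Mmp3, Mmp13 and Mmp10, and a link was not tested.

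Of 12 ligands and receptors that ADAMs shed, 8 of 8 measured were lower at 5% O2 in untransduced fibroblasts, 2 by at least 2-fold (Hbegf at -1.75 and Cd44 at -1.06), against 55.2% of all genes below 0 and 1.72% at least 2-fold lower. Ereg was at least 3.23-fold lower by bound in the same cells, a bound of 2-fold lower that 12.9% of 1145 genes reached. In four-factor cells 10 of 11 were lower, against 51.9% of all genes, 1 by at least 2-fold (Ereg at -1.02), against 1.08%. Adam10 and Adam17 differed by 0.06 and 0.51 in untransduced fibroblasts and by 0.01 and 0.28 in four-factor cells, all positive. Between cultures 2 of 9 were at least 2-fold higher in four-factor cells and 1 lower at 21% O2, and 4 and 0 of 8 at 5% O2, where the background was 11.8% and 16.6%, then 17.1% and 20%. Of 10 proteoglycan and collagen substrates, 9 of 9 measured were lower in four-factor cells at 21% O2, 5 by at least 2-fold, and 7 of 7 at 5% O2, 4 by at least 2-fold, against 16.6% and 20% of all genes. Eln, elastin, differed by -6.27 and -6.93, and Vcan, versican, by -1.64 and -2.31. Oxygen moved 0 of 8 by 2-fold in four-factor cells, and 1 of 9, Bcan, by 1.33 in untransduced fibroblasts, against 2.56% of all genes higher.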

How the data were processed

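Signals are intensities from Agilent Feature Extraction 9.5.3.1, background-subtracted and detrended within an array, per the file headers. The deposited value table holds log2 values, which for 99.6% to 99.7% of probes lay within 0.001 of log2 of the processed signal after scaling to the 75th percentile of that array; its columns had medians of -3.86, -3.87, -3.71 and -3.69. RNA was isolated with Trizol, per the labels' protocols.

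The same quantity was computed here from the scanner files. Feature outlier spots (65 to 115 an array) were dropped, replicate spots averaged, and a gene was read by its brightest probe. A gene counted when at least 2-fold apart and well above background on both arrays; with 1 such array its fold is a lower bound, against the higher of its dim signal and the array's lowest signal well above background. limma 3.58.1 (R 4.3.3) fitted culture and oxygen to the 18278 genes that were well above background on 2 or more arrays. It was tested on simulated data, with 50 genes changed at each size for each term. Changes of 1, 2, 3 and 4 log2 units were recovered for 0%, 46%, 90% and 98% of genes for oxygen. For culture the shares were 0%, 30%, 86% and 94%, with 5 false calls for each term. In the data the model called far more genes for culture, 27.3% higher and 22.7% lower, which loosens the adjusted threshold. The simulated culture shares therefore do not describe the culture calls, among which Adam10 was called at -0.62.

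Members, the 14 roles, 4 pathway lists and 7 marker lists were chosen with earlier results of these data known. Named with values were the TIMPs, members past 2-fold in any comparison, and a fixed list of common proteases. Names come from the array files; 65 of 77 probes used matched RefSeq by accession, and 45 members had a RefSeq promoter (GRCm38.p6), while array positions are mm8. The 6 alternative settings are in the closing section. One listed gene past 2-fold is not reported here.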

Additional observations from a re-analysis of the deposited data

Results flagged for a closer look

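Adamdec1 had opposite oxygen differences in the 2 cultures. It differed by -1.13 log2 units (5% minus 21% O2) in four-factor cells, from a level of -4.85 to -5.98, and by 1.58 in untransduced fibroblasts. With 1 array per condition the difference between these effects was not tested.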

How the results depend on the processing

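The limits are 1 array a condition and dim members, whose signal lies near the floor of 9.64 to 26.5 intensity units. No paired analysis was possible because each condition had 1 array, and no array could be left out. Counts of members are given as main value, then the alternative. With normexp, oxygen in four-factor cells gave 1 then 0 members higher (Adamts19 lost), oxygen in untransduced fibroblasts 4 then 2 higher, and four-factor against untransduced at 5% O2 5 then 3 higher. With spike-in scaling, oxygen gave 1 then 0 lower in four-factor cells and 0 then 2 lower in untransduced fibroblasts. The model then gave 0 then 1 member higher for oxygen and 5 then 8 higher for culture. With the mean of all probes, untransduced fibroblasts had 0 then 1 member lower with oxygen (Timp1), and Adamts20 at 5% O2 reversed from 1.05 to -0.79. With no filter on dim probes, oxygen gave 1 then 3 higher and 1 then 2 lower in four-factor cells, 4 then 8 higher and 0 then 2 lower in untransduced fibroblasts, and four-factor against untransduced at 21% O2 gave 27 then 41 lower; here more genes were counted. For the other settings the cause was not tested. The count of members lower in four-factor cells was 22 to 27 at 21% and 27 to 35 at 5% O2 over the other settings, and 30 to 50 for the model's culture term over all of them. With normexp the model called 73 genes higher and 95 lower for oxygen, against 0 and 0, and none of them was a member. Quantile normalization and the deposited value table left every count within 1.5 times its main value.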
